A study of Mus musculus with 8 samples.

Results

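The interferon-stimulated genes described here are 39 listed mouse genes outside the IFIT, OAS and GBP families, taken by name from a list. That list was chosen with earlier results of these data known. The deposited table of 22962 genes held 37 of them, all 37 passed the filter on low values, and Mx1 and Mx2 were not analysed here. The RNA came from the stromal vascular fraction of gonadal fat of wild-type mice, whose cells were differentiated into adipocytes in culture. Of the 8 libraries, DoxSa 1 to 4 came from cells given DoxSa, and DMSO 1 to 4 from cells given the solvent DMSO, in both groups on day 6. DoxSa is not spelled out in the labels, and the series title concerns 1-deoxysphingolipids, a class of sphingolipids that lack a hydroxyl group of the common ones. The cultures are primary mixtures, since the stromal vascular fraction holds progenitor, immune and vascular cells. Nothing in the labels tells if the 4 libraries of a group were separate cultures or animals, and each p-value therefore weighs a difference against the spread of these samples alone, which may be technical.

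Type I and type III interferons bind receptors at the cell surface, and the kinases of those receptors phosphorylate STAT2 and other STAT proteins. With IRF9 these form a complex that enters the nucleus and binds the interferon-stimulated response element, a pair of GAAA blocks in the promoters of its target genes. Type II interferon acts mainly through the gamma-activated site, which is bound by STAT proteins. The induced proteins block viral replication, tag or modify other proteins, sense foreign nucleic acid, or feed back on the pathway, and Stat2, Irf9 and Irf7 are themselves induced. In fat, adipocytes, their progenitors and resident macrophages all can express such genes.

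The promoters below are shown because they hold the motifs by which interferon pathways are known to act, in genes of different roles and results. RefSeq promoters, of build GRCm38.p6, run from 250 bases before to 50 bases after the annotated start. They were present for 30 of the 37 genes, matched by gene identifier. The interferon-stimulated response element was searched as GAAANNGAAA and the gamma-activated site as TTCNNNGAA, each on both strands. Capitals mark the response element in the sequences of Isg15, Rsad2, Bst2 and Ddx60, and the gamma-activated site in that of Irf1. The Isg15 window is chr4:156200769-156201068, minus strand, and of its 3 matches the neighbouring ones overlap. The Rsad2 window is chr12:26456403-26456702, minus strand. The Bst2 window is chr8:71537423-71537722, minus strand, where 2 matches overlap each other and a gamma-activated site match overlaps the first of them. The Ddx60 window is chr8:61927837-61928136, plus strand, with 2 separate matches. The Irf1 window is chr11:53769764-53770063, plus strand.
Isg15: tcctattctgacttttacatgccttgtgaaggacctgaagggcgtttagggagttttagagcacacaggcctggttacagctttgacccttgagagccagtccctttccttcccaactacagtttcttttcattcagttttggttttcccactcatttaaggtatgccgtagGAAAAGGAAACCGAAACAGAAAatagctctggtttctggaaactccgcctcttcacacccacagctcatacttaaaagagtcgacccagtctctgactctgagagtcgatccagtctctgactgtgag
Rsad2: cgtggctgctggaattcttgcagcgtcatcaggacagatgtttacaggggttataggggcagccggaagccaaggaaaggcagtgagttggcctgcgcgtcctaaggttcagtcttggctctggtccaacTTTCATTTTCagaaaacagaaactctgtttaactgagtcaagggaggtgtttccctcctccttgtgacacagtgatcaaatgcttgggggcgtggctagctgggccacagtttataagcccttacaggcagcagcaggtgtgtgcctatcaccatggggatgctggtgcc
Bst2: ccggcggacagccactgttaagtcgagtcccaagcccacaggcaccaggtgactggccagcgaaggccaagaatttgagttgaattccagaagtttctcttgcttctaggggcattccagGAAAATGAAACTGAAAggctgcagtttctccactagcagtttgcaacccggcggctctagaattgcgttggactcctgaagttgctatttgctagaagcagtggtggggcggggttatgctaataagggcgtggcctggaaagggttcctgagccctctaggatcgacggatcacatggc
Ddx60: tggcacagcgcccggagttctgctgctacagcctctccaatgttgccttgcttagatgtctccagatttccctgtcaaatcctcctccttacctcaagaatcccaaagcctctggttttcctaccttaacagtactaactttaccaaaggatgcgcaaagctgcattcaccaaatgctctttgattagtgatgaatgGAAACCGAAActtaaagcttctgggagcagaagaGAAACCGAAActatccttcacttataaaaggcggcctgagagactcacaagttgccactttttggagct
Irf1: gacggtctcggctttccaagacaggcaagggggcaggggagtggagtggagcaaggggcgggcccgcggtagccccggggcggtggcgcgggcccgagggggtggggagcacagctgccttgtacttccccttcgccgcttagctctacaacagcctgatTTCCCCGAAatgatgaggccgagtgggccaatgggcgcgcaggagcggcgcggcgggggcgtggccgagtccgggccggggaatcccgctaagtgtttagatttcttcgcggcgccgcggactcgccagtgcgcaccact
At least 1 response element match stood in a window of 11 of the 30 genes (36.7%), against 3.85% of the 9647 tested genes with a promoter in that table. These 11 were Isg15, Rsad2, Bst2, Ddx60, Stat2, Eif2ak2, Ifi203, Slfn5, Slfn8, Trim21 and Trim30a. Gamma-activated site matches stood in windows of 6 of 30 genes (20.0%), against 8.28% of tested genes, and a kappaB motif searched as GGGANNTTCC on both strands stood in a window of 1 gene, Isg20 (3.33%), against 1.74%. Some genes have several windows, and the share of single windows with a response element was 32.5% of 40, against 3.16% of 12255. A match is a run of letters and not a measured binding site, and its absence says only that these letters are not in that window.

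The libraries were close in depth, with 39213008 to 41365861 reads recovered from the FPKM steps (reads scaled to gene length and to the reads of the library). All 6 adipocyte markers of a list passed the filter, and Adipoq averaged 772 ± 19.2 FPKM in DoxSa and 774 ± 29.8 FPKM in DMSO (SD, n = 4 each). Of these 6, 0 were called in either direction. Of 5 progenitor or fibroblast markers, 4 passed the filter and 0 were called, and Dpp4 lay under it. Col1a1, from that list, averaged 1220 ± 87.8 FPKM in DoxSa and 1310 ± 65.9 FPKM in DMSO (SD, n = 4 each). All 8 macrophage markers of a list were also present, and their summed level was 6910 to 7400 FPKM in DoxSa libraries, against 6200 to 7150 FPKM in DMSO libraries. Of these 8, 1 rose, Cd14 (log2 fold change 0.36 ± 0.07, SE, adjusted p = 0.0154), and the other 7 did not pass the test. Among all tested genes 3.88% were called higher. All 8 markers had a positive fold change, the smallest 0.0 after rounding, with a median of 0.12, against 0.0121 over all tested genes. The 3 T or NK cell markers in the table reached at most 0.13 FPKM in sum. Of the markers listed for plasmacytoid dendritic cells, Siglech had 1 read and Ccr9 3 reads over all 8 libraries. Tcf4, from the same list, averaged 1.85 FPKM in DoxSa and 1.68 FPKM in DMSO, and Bst2, also on it, is 1 of the 37 genes. In these bulk samples, fewer cells of a type and less RNA per cell cannot be told apart. DoxSa 4 and DMSO 1 stood nearer to the other group than their fellow libraries in most of the 37 genes, and counts and calls are given with and without them.

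The listed interferon-stimulated genes were higher in DoxSa as a group. Since they were chosen with earlier results known, the shares of all tested genes beside them are description and no test. Of the 37 genes, 25 rose (67.6%), 0 fell, and 12 did not pass the test, with a call being an adjusted p under 0.05 from limma over the 12060 genes that averaged 0.5 FPKM or more. Among all tested genes, 3.88% were called higher (468) and 2.02% lower (244), and under quantile normalization 384 were higher and 316 lower, with 19 of the 37 higher. At an unadjusted p under 0.05, 35 of the 37 were higher and 0 lower, against 12.6% of all tested genes higher. The median log2 fold change of the 37 was 0.44, against 0.0121 over all tested genes, and the ratio of the DoxSa mean to the DMSO mean lay between 1.24 and 2.55 among the 25 that rose. Every DoxSa library exceeded every DMSO library for 15 of the 37 (40.5%), against 7.8% of all tested genes, and all 15 were among the 25. The reverse, every DoxSa library below every DMSO library, held for 0 of the 37, against 4.71% of all tested genes. The fewest reads behind any of the 37 in a library were 121, for Ifi44. Without DoxSa 4 the count of rises was 30, and without DMSO 1 it was 34, while without DoxSa 1, DoxSa 2, DoxSa 3, DMSO 2, DMSO 3 or DMSO 4 it was 7, 6, 11, 12, 11 or 18. The count also depended on the filter, since without it 22962 genes were tested and 0 of the 37 were called, with a smallest adjusted p of 0.0616 and 33 at an unadjusted p under 0.05.

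**Figure D1:**
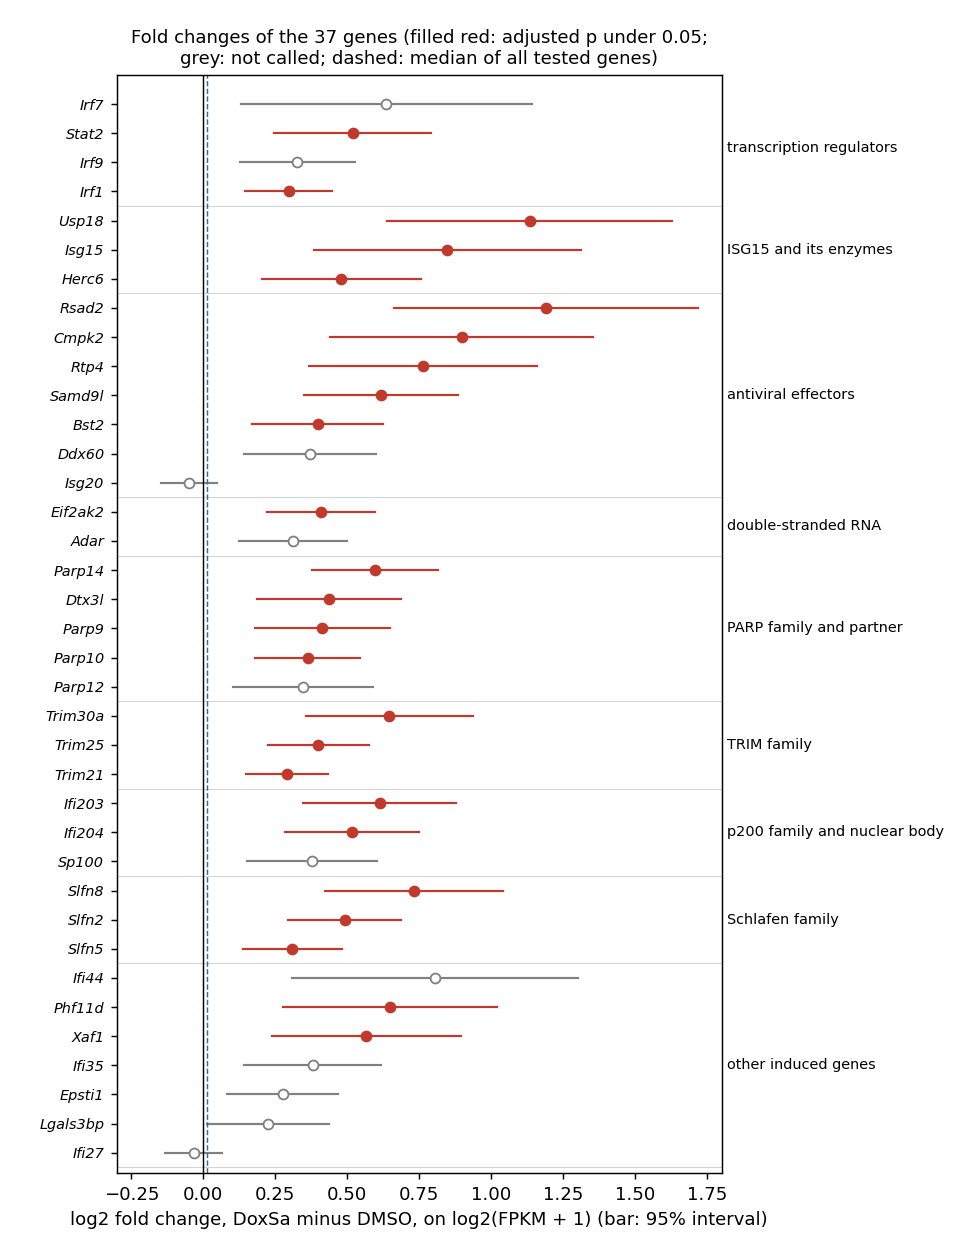
Log2 fold change, DoxSa minus DMSO, of log2(FPKM + 1) for the 37 genes by role, with 95% intervals from limma. Filled red points are the 25 genes at an adjusted p under 0.05, open grey points the 12 that did not pass, and the dashed line is the median of all tested genes at 0.0121; Rsad2 and Usp18 lie farthest right, and Isg20 and Ifi27 lie left of 0.

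The plot of fold changes by role shows that the rises were spread over all 9 role groups. The largest were those of Rsad2 and Usp18, and Isg20 and Ifi27 alone had a negative fold change. Levels below are FPKM, per library for the genes chosen by the rule given with the methods and as group means for the others, and every fold change is a difference of log2(FPKM + 1), which understates the change of low genes.

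Among the transcription regulators, Irf1 and Stat2 rose, and Irf9 and Irf7 did not pass the test. Irf1, a factor induced by type II interferon and by inflammatory cytokines, measured 12.9, 13.1, 12.9 and 12.7 FPKM in DoxSa 1 to 4, against 12.3, 9.88, 9.13 and 10.3 FPKM in DMSO 1 to 4. All 4 DoxSa libraries lay within a narrow band above every DMSO library, and DMSO 1 came closest to them. Irf1 had a fold change of 0.30 ± 0.07 (SE, adjusted p = 0.0295), while the call was kept only without DMSO 1 (adjusted p up to 0.0823 without each of the other libraries). Stat2, the STAT that is used by type I and type III interferon, measured 23.4, 23, 23.6 and 17.9 FPKM in DoxSa 1 to 4, against 18.4, 12.7, 12.4 and 17.1 FPKM in DMSO 1 to 4. DoxSa 4 lay under DMSO 1 and above the other DMSO libraries, so the groups overlapped through that pair. Stat2 had a fold change of 0.52 ± 0.12 (SE, adjusted p = 0.0332), while the call was lost on leaving out any 1 of DoxSa 1, DoxSa 2, DoxSa 3, DMSO 2 and DMSO 3 (adjusted p 0.0761 to 0.0971).

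Irf9, the DNA-binding partner of STAT2, measured 18.6, 19.7, 19 and 16.1 FPKM in DoxSa 1 to 4, against 17.1, 13, 12.4 and 15.4 FPKM in DMSO 1 to 4. DoxSa 1 to 3 exceeded every DMSO library, and DoxSa 4 fell between DMSO 1 and DMSO 4. Irf9 had a fold change of 0.33 ± 0.09 (SE, adjusted p = 0.0615), and it passed without DoxSa 4 (adjusted p = 0.0374) or without DMSO 1 (adjusted p = 0.0164). Irf7, which drives interferon production in a positive loop, measured 49.3, 48, 56.4 and 33.1 FPKM in DoxSa 1 to 4, against 44.7, 22.5, 19.9 and 35.9 FPKM in DMSO 1 to 4. DoxSa 4 lay below both DMSO 1 and DMSO 4, and the spread within groups was wide, with means of 46.7 ± 9.8 FPKM in DoxSa and 30.7 ± 11.6 FPKM in DMSO (SD, n = 4 each). Irf7 had a fold change of 0.64 ± 0.23 (SE, adjusted p = 0.148), with a 95% interval of 0.13 to 1.14, and it passed only without DMSO 1 (adjusted p = 0.0361).

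**Figure D2:**
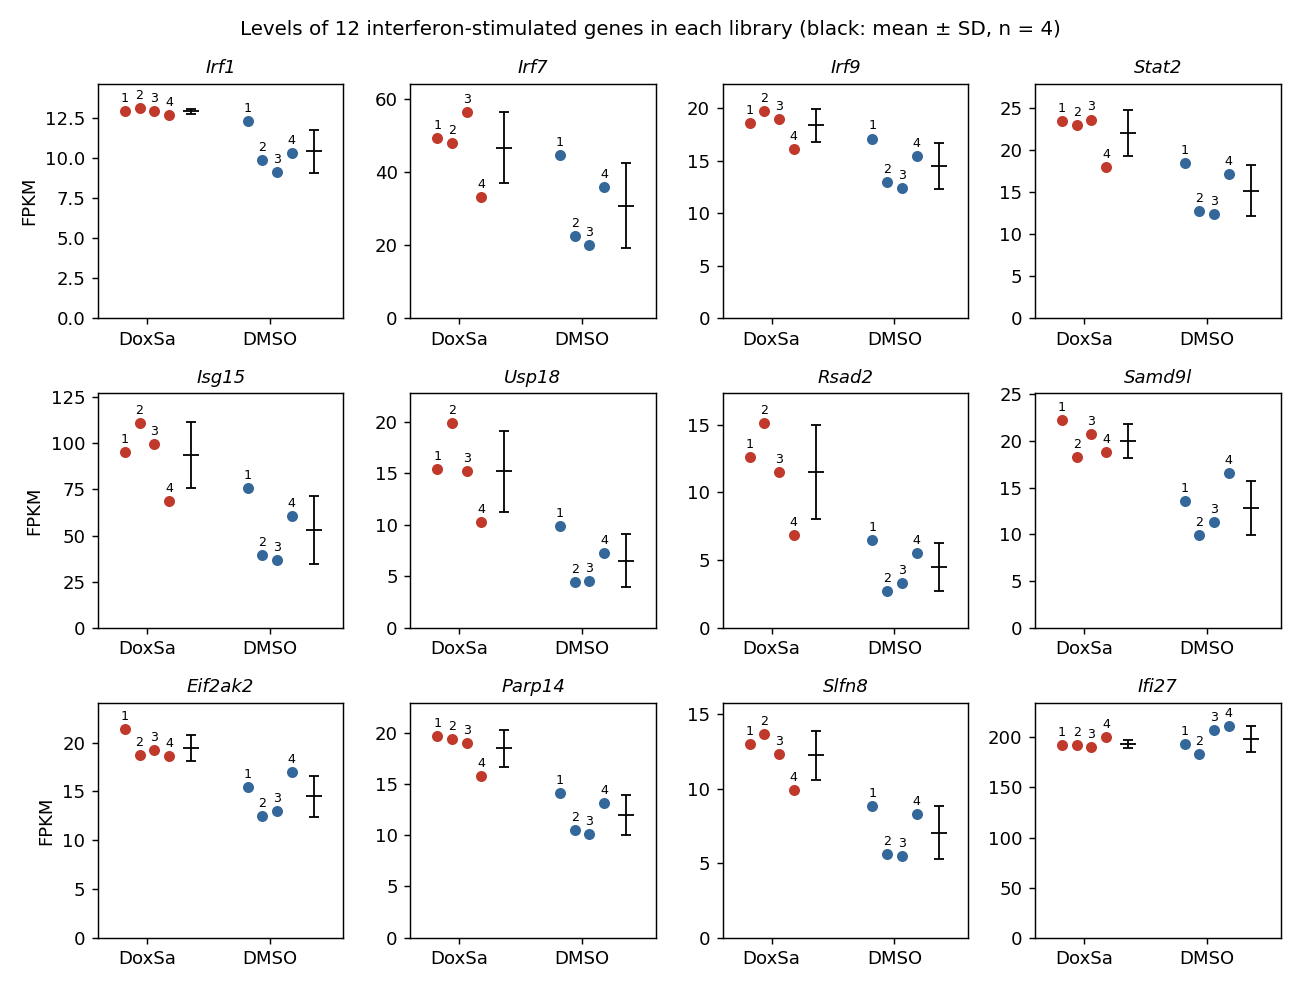
FPKM of 12 genes in each library, with the replicate number beside each point and the mean ± SD (n = 4) in black, DoxSa in red and DMSO in blue. DoxSa 4 is the lowest red point in all panels but Samd9l and Ifi27, DMSO 2 and DMSO 3 are the lowest blue points in all but Ifi27, and Ifi27 shows no separation.

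All 3 listed genes of the ISG15 system rose. Of 5 other ISG15 enzymes, counted with the pathway genes below, 0 were called, against 3.88% of all tested genes higher. Their fold changes ran from -0.07 to 0.21. Isg15 itself, a ubiquitin-like protein that is joined to other proteins and also secreted, measured 95.2, 111, 99.8 and 68.5 FPKM in DoxSa 1 to 4, against 75.7, 39.5, 36.7 and 60.6 FPKM in DMSO 1 to 4. DoxSa 4 lay below DMSO 1 only, and DMSO 2 and DMSO 3 were far below every other library. The fold change of Isg15 was 0.85 ± 0.21 (SE, adjusted p = 0.0397), while the call was lost on leaving out any 1 of DoxSa 1, DoxSa 2, DoxSa 3, DMSO 2 and DMSO 3 (adjusted p 0.0866 to 0.12). Its promoter, shown above, held the most response element matches of the 4 printed for that motif.

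Usp18, which removes ISG15 from proteins and also restrains the type I interferon receptor, measured 15.4, 19.9, 15.2 and 10.3 FPKM in DoxSa 1 to 4, against 9.89, 4.44, 4.54 and 7.26 FPKM in DMSO 1 to 4. The groups did not overlap, but DoxSa 4 and DMSO 1 were close. Usp18 had a fold change of 1.13 ± 0.23 (SE, adjusted p = 0.0148), while the call was lost without DoxSa 2 (adjusted p = 0.05002). Herc6, the main ligase for ISG15 in mice, measured 5.72, 5.81, 6.31 and 4.25 FPKM in DoxSa 1 to 4, against 4.2, 3.18, 2.84 and 4.56 FPKM in DMSO 1 to 4. DoxSa 4 fell between DMSO 1 and DMSO 4. Herc6 had a fold change of 0.48 ± 0.13 (SE, adjusted p = 0.0491), while the call was lost on leaving out any 1 of DoxSa 1, DoxSa 2, DoxSa 3, DMSO 2 and DMSO 3 (adjusted p 0.107 to 0.133).

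Of the 7 antiviral effectors, 5 rose, and Ddx60 and Isg20 did not pass the test. Samd9l, a cytoplasmic factor that restricts poxviruses, measured 22.2, 18.3, 20.7 and 18.8 FPKM in DoxSa 1 to 4, against 13.6, 9.98, 11.3 and 16.6 FPKM in DMSO 1 to 4. Every DoxSa library exceeded every DMSO library, with DMSO 4 the nearest. The fold change of Samd9l was 0.62 ± 0.12 (SE, adjusted p = 0.0146), while the call held without each library in turn (adjusted p up to 0.0471). Rsad2, or viperin, which makes a nucleotide that ends viral RNA chains, measured 12.6, 15.1, 11.5 and 6.85 FPKM in DoxSa 1 to 4, against 6.48, 2.73, 3.33 and 5.52 FPKM in DMSO 1 to 4. DoxSa 4 was well under the other DoxSa libraries and just above DMSO 1. This was the largest fold change of the 37, 1.19 ± 0.24 (SE, adjusted p = 0.0159), while the call was lost without either DoxSa 1 or DoxSa 2 (adjusted p 0.0505 to 0.0528).

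Cmpk2, a mitochondrial nucleotide kinase whose gene lies next to Rsad2, measured 7.52, 7.57, 6.31 and 3.77 FPKM in DoxSa 1 to 4, against 4.43, 2.03, 2.13 and 3.11 FPKM in DMSO 1 to 4. DoxSa 4 fell between DMSO 1 and DMSO 4, and the other 3 DoxSa libraries lay above all DMSO libraries. Cmpk2 had a fold change of 0.90 ± 0.21 (SE, adjusted p = 0.0289), while the call was lost on leaving out any 1 of DoxSa 1, DoxSa 2, DoxSa 3, DMSO 2, DMSO 3 and DMSO 4 (adjusted p 0.0505 to 0.0931). Rtp4, a chaperone-like protein that acts on viral replication and on interferon signalling, averaged 28.3 ± 4.36 FPKM in DoxSa and 16.7 ± 5.23 FPKM in DMSO (SD, n = 4 each), with a fold change of 0.76 ± 0.18 (SE, adjusted p = 0.0315). Bst2, or tetherin, which holds budding virions at the cell surface, averaged 207 ± 15.6 FPKM in DoxSa and 158 ± 28.8 FPKM in DMSO (SD, n = 4 each), with a fold change of 0.40 ± 0.10 (SE, adjusted p = 0.0488). It was the most abundant of the genes that rose. For both, the groups overlapped through DoxSa 4 and DMSO 1. After refits, the call of Rtp4 was lost on leaving out any 1 of DoxSa 1, DoxSa 2, DoxSa 3, DMSO 2 and DMSO 3 (adjusted p 0.0705 to 0.0945), while the call of Bst2 was lost on leaving out any 1 of DoxSa 1, DoxSa 2, DoxSa 3, DMSO 2, DMSO 3 and DMSO 4 (adjusted p 0.0755 to 0.132). Ddx60, a helicase, averaged 4.19 ± 0.735 FPKM in DoxSa and 3.0 ± 0.433 FPKM in DMSO (SD, n = 4 each), with a fold change of 0.37 ± 0.10 (SE, adjusted p = 0.0623), and it passed without DoxSa 4 (adjusted p = 0.0122) or without DMSO 1 (adjusted p = 0.0342). Isg20, an RNA exonuclease, averaged 6.43 ± 0.312 FPKM in DoxSa and 6.68 ± 0.186 FPKM in DMSO (SD, n = 4 each), and its fold change was -0.05 ± 0.04 (SE, adjusted p = 0.603), with a 95% interval of -0.15 to 0.05.

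Of the 2 genes that act on double-stranded RNA, Eif2ak2 rose and Adar did not pass the test. Eif2ak2, or PKR, the kinase that halts translation on sensing such RNA, measured 21.4, 18.7, 19.2 and 18.6 FPKM in DoxSa 1 to 4, against 15.5, 12.5, 13 and 17 FPKM in DMSO 1 to 4. Every DoxSa library exceeded every DMSO library, and DMSO 4 rather than DMSO 1 was the highest DMSO library. Eif2ak2 had a fold change of 0.41 ± 0.09 (SE, adjusted p = 0.0183), while the call was lost without DoxSa 1 (adjusted p = 0.0574). Adar, the editor that changes adenosine to inosine in double-stranded RNA, measured 10.2, 10.3, 10.6 and 8.66 FPKM in DoxSa 1 to 4, against 9.09, 7.5, 6.54 and 8.26 FPKM in DMSO 1 to 4. DoxSa 4 fell between DMSO 1 and DMSO 4. Adar had a fold change of 0.31 ± 0.09 (SE, adjusted p = 0.0594), and it passed without DoxSa 4 (adjusted p = 0.034) or without DMSO 1 (adjusted p = 0.0226).

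Of the 5 listed genes of the PARP family and its partner, 4 rose. Parp14, which adds single ADP-ribose units to proteins, measured 19.7, 19.4, 19 and 15.8 FPKM in DoxSa 1 to 4, against 14.1, 10.5, 10.1 and 13.1 FPKM in DMSO 1 to 4. The groups did not overlap, and DoxSa 4 was the lowest DoxSa library. Its adjusted p was the smallest of the 37, with a fold change of 0.60 ± 0.10 (SE, adjusted p = 0.00626), while the call held without each library in turn (adjusted p up to 0.0267). Parp10, another mono-ADP-ribosyl transferase, measured 10.4, 9.92, 9.33 and 8.41 FPKM in DoxSa 1 to 4, against 8.36, 7.05, 6.06 and 7.31 FPKM in DMSO 1 to 4. The groups were separated only by the small gap between DoxSa 4 and DMSO 1. Parp10 had a fold change of 0.36 ± 0.08 (SE, adjusted p = 0.0269), while the call was lost on leaving out any 1 of DoxSa 1, DoxSa 2, DoxSa 3, DMSO 2 and DMSO 3 (adjusted p 0.0534 to 0.0824). Parp9, which acts in a complex with Dtx3l, measured 29.1, 30.1, 27.3 and 22.9 FPKM in DoxSa 1 to 4, against 24, 17.9, 17.2 and 22.4 FPKM in DMSO 1 to 4. DoxSa 4 fell between DMSO 1 and DMSO 4. Parp9 had a fold change of 0.41 ± 0.11 (SE, adjusted p = 0.0462), while the call was lost on leaving out any 1 of DoxSa 1, DoxSa 2, DoxSa 3, DMSO 2 and DMSO 3 (adjusted p 0.0982 to 0.136).

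Dtx3l, the ubiquitin ligase of that complex, averaged 12.6 ± 1.65 FPKM in DoxSa and 9.09 ± 1.64 FPKM in DMSO (SD, n = 4 each), with a fold change of 0.44 ± 0.11 (SE, adjusted p = 0.0484). The call of Dtx3l was lost on leaving out any 1 of DoxSa 1, DoxSa 2, DoxSa 3, DMSO 2, DMSO 3 and DMSO 4 (adjusted p 0.0525 to 0.133). Parp12 averaged 19.6 ± 1.84 FPKM in DoxSa and 15.4 ± 3.02 FPKM in DMSO (SD, n = 4 each) and did not pass, with a fold change of 0.35 ± 0.11 (SE, adjusted p = 0.104), except without DMSO 1 (adjusted p = 0.0131). Dtx3l and Parp9 overlap in the RefSeq gene table and Parp14 is their neighbour, so reads of Dtx3l and Parp9 cannot be told apart where strand is not kept, and whether it was kept is not given in the sources used here.

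All 3 listed TRIM genes rose, and in each every DoxSa library exceeded every DMSO library. Trim25, a ubiquitin ligase of the RIG-I pathway, measured 20.6, 21.8, 20.9 and 18.1 FPKM in DoxSa 1 to 4, against 17.7, 13.4, 14 and 15.7 FPKM in DMSO 1 to 4. Trim25 had a fold change of 0.40 ± 0.08 (SE, adjusted p = 0.0156), while the call was lost without DoxSa 2 (adjusted p = 0.0537). Trim30a, a mouse regulator of toll-like receptor signalling, measured 26.4, 26.8, 26.3 and 20.9 FPKM in DoxSa 1 to 4, against 19.3, 13.2, 12.4 and 18.7 FPKM in DMSO 1 to 4. DoxSa 4 stood apart from the other 3 DoxSa libraries, which were nearly equal. Trim30a had a fold change of 0.65 ± 0.13 (SE, adjusted p = 0.0167), while the call was lost without either DoxSa 1 or DoxSa 2 (adjusted p 0.0527 to 0.0568). Trim21, a cytosolic antibody receptor and ubiquitin ligase, measured 7.32, 7.27, 7.09 and 6.22 FPKM in DoxSa 1 to 4, against 6.08, 5.74, 4.94 and 5.34 FPKM in DMSO 1 to 4. DoxSa 4 and DMSO 1 again lay closest to each other. Trim21 had a fold change of 0.29 ± 0.06 (SE, adjusted p = 0.0237), while the call was lost on leaving out any 1 of DoxSa 1, DoxSa 2, DoxSa 3, DMSO 3 and DMSO 4 (adjusted p 0.0552 to 0.0742).

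Of the DNA-sensing p200 family, the listed genes Ifi203 and Ifi204 rose. Ifi203 measured 9.53, 9.01, 9.43 and 7.6 FPKM in DoxSa 1 to 4, against 6.67, 4.06, 4.97 and 6.47 FPKM in DMSO 1 to 4. The groups did not overlap, and DMSO 2 was the lowest library. The fold change of Ifi203 was 0.61 ± 0.12 (SE, adjusted p = 0.0143), while the call held without each library in turn (adjusted p up to 0.0468). Ifi204, a sensor of foreign DNA, measured 87.5, 89.3, 81.2 and 69.9 FPKM in DoxSa 1 to 4, against 65.7, 47.2, 51.9 and 64.3 FPKM in DMSO 1 to 4. Here too no DMSO library reached a DoxSa library. Ifi204 had a fold change of 0.52 ± 0.11 (SE, adjusted p = 0.0168), while the call was lost without either DoxSa 1 or DoxSa 2 (adjusted p 0.055 to 0.0582). Sp100, a scaffold of the nuclear bodies that silence viral genomes, measured 16, 16.7, 16 and 13.8 FPKM in DoxSa 1 to 4, against 14.8, 9.76, 10.8 and 12.2 FPKM in DMSO 1 to 4. DoxSa 4 lay below DMSO 1 and above the other DMSO libraries. Sp100 had a fold change of 0.38 ± 0.10 (SE, adjusted p = 0.0561), and it passed without DoxSa 4 (adjusted p = 0.0452) or without DMSO 1 (adjusted p = 0.00654).

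All 3 listed Schlafen genes rose, with no overlap between the groups. Slfn2, known for keeping mouse T cells quiescent, measured 78.3, 82, 80.7 and 67 FPKM in DoxSa 1 to 4, against 65.7, 49.6, 49.1 and 54.2 FPKM in DMSO 1 to 4. DoxSa 4 was just above DMSO 1, and the other DoxSa libraries were well clear. The fold change of Slfn2 was 0.49 ± 0.09 (SE, adjusted p = 0.00994), while the call held without each library in turn (adjusted p up to 0.0391). Slfn8 measured 13, 13.7, 12.3 and 9.92 FPKM in DoxSa 1 to 4, against 8.86, 5.6, 5.45 and 8.32 FPKM in DMSO 1 to 4. The order of the libraries was similar, with DMSO 2 and DMSO 3 the lowest. Slfn8 had a fold change of 0.73 ± 0.14 (SE, adjusted p = 0.013), while the call held without each library in turn (adjusted p up to 0.0471). Slfn5 measured 46.3, 41.9, 45 and 39.4 FPKM in DoxSa 1 to 4, against 38.2, 29.3, 34 and 37.5 FPKM in DMSO 1 to 4. The gap between DoxSa 4 and DMSO 1 was small beside the range of either group. Slfn5 had a fold change of 0.31 ± 0.08 (SE, adjusted p = 0.0413), while the call was lost on leaving out any 1 of DoxSa 1, DoxSa 2, DoxSa 3, DMSO 2 and DMSO 3 (adjusted p 0.068 to 0.118).

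Of the 7 other induced genes, 2 rose. Phf11d, which encodes a PHD-finger protein, measured 18.1, 16.8, 17.1 and 12 FPKM in DoxSa 1 to 4, against 13.5, 7.72, 7.52 and 11.3 FPKM in DMSO 1 to 4. DoxSa 4 fell between DMSO 1 and DMSO 4. Phf11d had a fold change of 0.65 ± 0.17 (SE, adjusted p = 0.0476), while the call was lost on leaving out any 1 of DoxSa 1, DoxSa 2, DoxSa 3, DMSO 2, DMSO 3 and DMSO 4 (adjusted p 0.0562 to 0.13). Xaf1, an interferon-induced partner of the apoptosis inhibitor XIAP, measured 7.81, 7.44, 6.81 and 4.98 FPKM in DoxSa 1 to 4, against 5.63, 3.51, 3.2 and 4.76 FPKM in DMSO 1 to 4. Again DoxSa 4 lay under DMSO 1 alone. Its fold change was 0.57 ± 0.15 (SE, adjusted p = 0.04995), at the edge of the threshold, and the call was lost on leaving out any 1 of DoxSa 1, DoxSa 2, DoxSa 3, DMSO 2, DMSO 3 and DMSO 4 (adjusted p 0.0612 to 0.14).

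Ifi44 measured 5.09, 4.64, 5.41 and 3.17 FPKM in DoxSa 1 to 4, against 3.53, 1.64, 1.03 and 3.07 FPKM in DMSO 1 to 4. DMSO 2 and DMSO 3 were far below every other library, and DoxSa 4 lay near DMSO 1 and DMSO 4. Its fold change of 0.80 ± 0.23 (SE, adjusted p = 0.0634) was among the larger ones, but the spread within groups was wide and it did not pass, except without DoxSa 4 (adjusted p = 0.0449) or without DMSO 1 (adjusted p = 0.0232). Ifi35, Epsti1 and Lgals3bp had positive fold changes that did not pass. Ifi35 had a fold change of 0.38 ± 0.11 (SE, adjusted p = 0.0676) and passed without DoxSa 4 (adjusted p = 0.0234) or without DMSO 1 (adjusted p = 0.0141). Epsti1 had 0.28 ± 0.09 (adjusted p = 0.102) and passed without DMSO 1 (adjusted p = 0.00885). Lgals3bp had 0.22 ± 0.10 (adjusted p = 0.224) and passed in none of the 8 fits that left out 1 library. Lgals3bp, a secreted glycoprotein, had the highest mean level of the 37 over the 8 libraries, with 271 ± 23 FPKM in DoxSa and 233 ± 35.9 FPKM in DMSO (SD, n = 4 each). Ifi27, a small mitochondrial protein, measured 194 ± 4.38 FPKM in DoxSa and 198 ± 12.6 FPKM in DMSO (SD, n = 4 each), and its fold change was -0.03 ± 0.04 (SE, adjusted p = 0.746), with a 95% interval of -0.13 to 0.06.

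The libraries kept a common order across these genes. The mean deviation of the 37 from each gene's mean, on the log2(FPKM + 1) scale, was 0.34, 0.34, 0.32 and 0.01 in DoxSa 1 to 4, against 0.03, -0.45, -0.47 and -0.11 in DMSO 1 to 4. DoxSa 1 to 3 thus stood together at the top, DMSO 2 and DMSO 3 together at the bottom, and DoxSa 4 beside DMSO 1 between them. DoxSa 4 was the lowest DoxSa library for 35 of the 37, against 26.7% of all tested genes, and DMSO 1 was the highest DMSO library for 32, against 28.3%. DMSO 2 and DMSO 3 were the lowest pair of DMSO for 34 of the 37, against 9.65% of all tested genes. DoxSa 1, 2 and 3 each exceeded every DMSO library in 34 of the 37, and every DoxSa library exceeded DMSO 2 and DMSO 3 in 35. With no library set aside, every DoxSa library exceeded every DMSO library in 15 of the 37 (40.5%), against 7.8% of all tested genes. The libraries set aside in the 2 larger counts were picked from these same values, and shares of all tested genes were not counted. DoxSa 4 was above DMSO 1 in 17 genes and below it in 20. The median SD within groups was 0.199 over the 37 on the log2(FPKM + 1) scale, against 0.0732 over all tested genes. Members that share a pathway are not independent, and these counts describe 8 libraries.

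**Figure D3:**
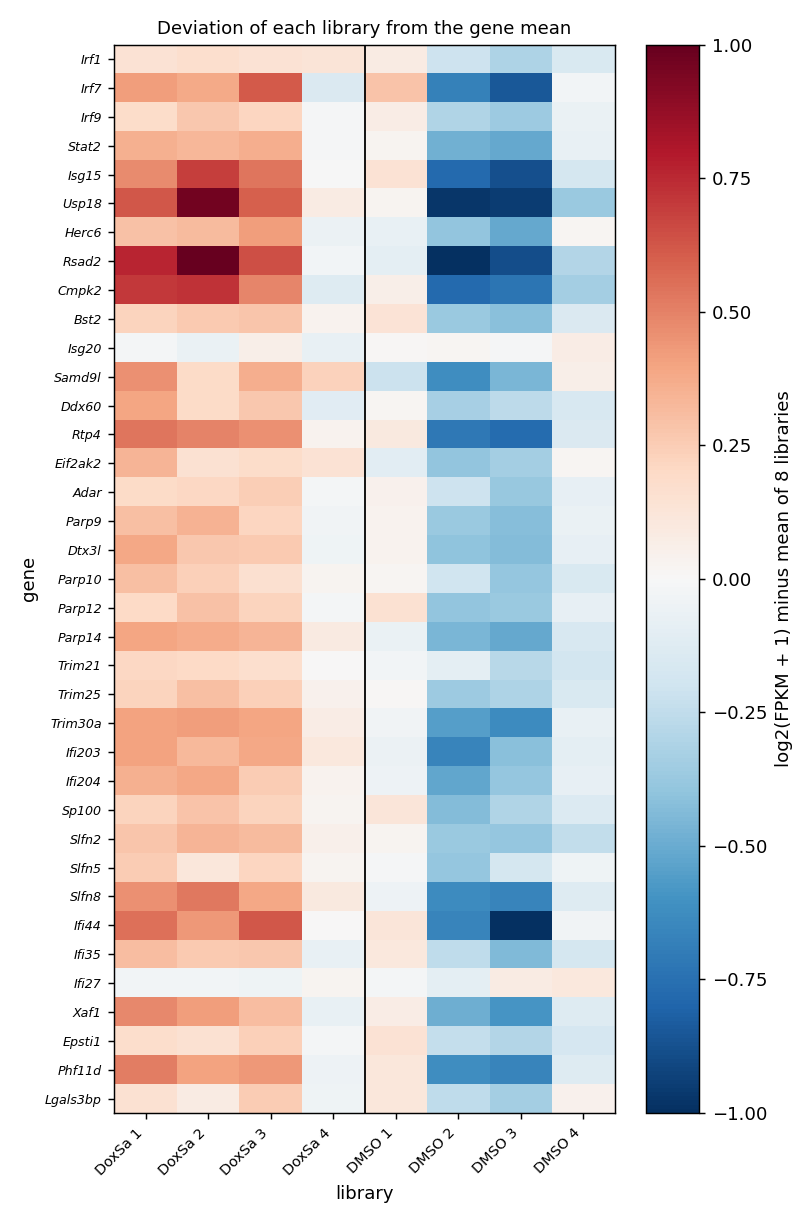
Deviation of log2(FPKM + 1) in each library from the mean of the 8 libraries, for the 37 genes (rows) and DoxSa 1 to 4 and DMSO 1 to 4 (columns). Red is above and blue below the mean, with end colours for values past the scale; DoxSa 1 to 3 are red and DMSO 2 and DMSO 3 blue in nearly all rows, with DoxSa 4 and DMSO 1 pale.

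The map of deviations shows that order gene by gene, with Isg20 and Ifi27 as the pale rows. The summed macrophage markers did not have that order. They measured 6940, 7400, 6910 and 7370 FPKM in DoxSa 1 to 4, against 6600, 6410, 7150 and 6200 FPKM in DMSO 1 to 4. Lyz2 made up most of each sum, with 4930, 5260, 4790 and 5220 FPKM in DoxSa 1 to 4, against 4550, 4540, 5100 and 4330 FPKM in DMSO 1 to 4. The order of the sums is therefore largely that of this gene. The part of the macrophage markers in the group difference was not tested. All tested genes together had mean deviations between -0.037 and 0.022 in every library.

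How far each call rested on single libraries and on the fit varied between genes. Samd9l, Parp14, Ifi203, Slfn2 and Slfn8 were called in all 8 fits that left out 1 library, and the other 20 of the 25 lost the call in at least 1. These 5 and 11 more, 16 in all, were also called under each of the 8 other settings except no filter. The remaining 9 were Isg15, Herc6, Cmpk2, Bst2, Parp9, Dtx3l, Slfn5, Xaf1 and Phf11d. They lost the call under 1 to 6 of those settings, with adjusted p of 0.05248 to 0.0968 for Herc6, 0.05569 to 0.06569 for Parp9 and 0.0532 for Cmpk2. A test on the recovered reads, by voom of limma, called 32 of the 37 higher, against 5.2% of all tested genes. It added Irf9, Ddx60, Adar, Parp12, Sp100, Ifi44 and Ifi35 to the 25.

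**Figure D4:**
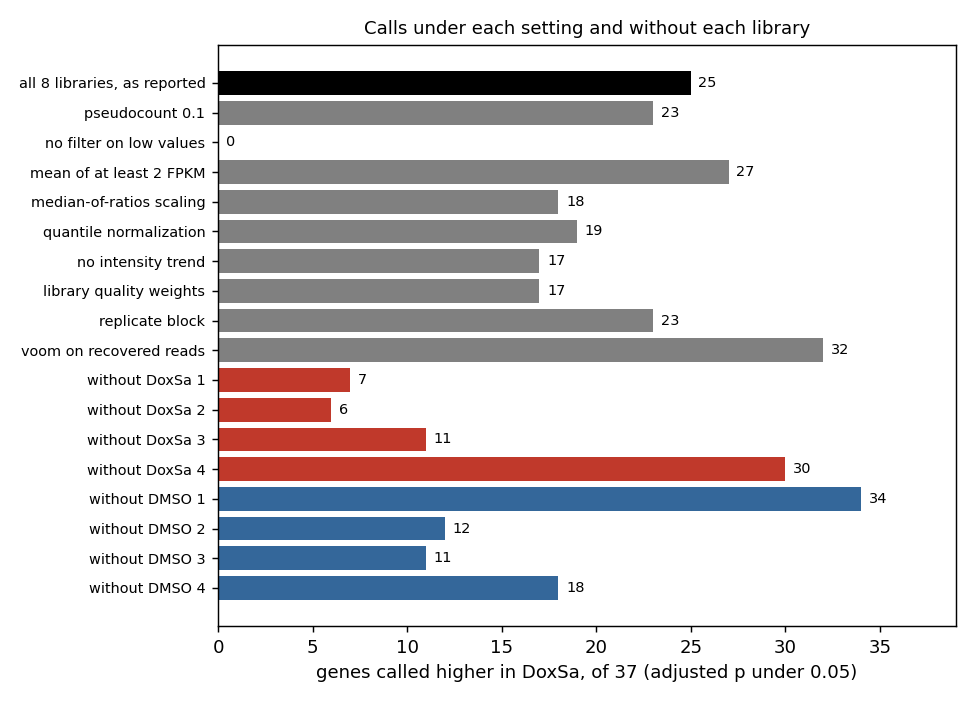
Number of the 37 genes called higher in DoxSa under each setting (grey) and without each library (red for DoxSa, blue for DMSO), beside the reported 25 (black). The bars without DoxSa 4 and without DMSO 1 reach 30 and 34, and those without DoxSa 1 and DoxSa 2 reach 7 and 6.

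The chart of calls shows the dependence on libraries. Leaving out DoxSa 4 or DMSO 1, the pair nearest to the other group, raised the count, and leaving out any other library lowered it. The sign of the fold change turned in none of the 37 in these 8 fits, and 33 to 35 of the 37 had an unadjusted p under 0.05 in each.

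Of 59 listed ligands, receptors, kinases, other factors, inhibitors and ISG15 enzymes, 41 were in the table and 35 were tested. Among these 35, 1 rose and 0 fell, a share near that of all tested genes (3.88% higher and 2.02% lower), and the median log2 fold change was 0.05, against 0.0121 over all tested genes. The gene that rose was Jak2, a kinase of the type II interferon receptor, which measured 10.7, 10.3, 10.2 and 10.4 FPKM in DoxSa 1 to 4, against 8.59, 8.33, 8.12 and 8.99 FPKM in DMSO 1 to 4. Every DoxSa library exceeded every DMSO library and DoxSa 4 did not stand apart. The fold change of Jak2 was 0.26 ± 0.04 (SE, adjusted p = 0.00446), while the call held without each library in turn (adjusted p up to 0.018).

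The receptor chains of type I interferon were expressed in all libraries. Ifnar1 averaged 19.6 ± 0.224 FPKM in DoxSa and 19 ± 0.578 FPKM in DMSO (SD, n = 4 each), with a fold change of 0.05 ± 0.03 (SE, adjusted p = 0.503). Ifnar2 averaged 14.3 ± 0.11 FPKM in DoxSa and 13.1 ± 0.542 FPKM in DMSO (SD, n = 4 each), with a fold change of 0.12 ± 0.04 (SE, adjusted p = 0.105), and its groups did not overlap. Irf3, the factor that starts interferon transcription, averaged 8.92 ± 0.423 FPKM in DoxSa and 8.96 ± 0.703 FPKM in DMSO (SD, n = 4 each), with an adjusted p of 0.985. Socs1, an inhibitor of JAK kinases, averaged 1.78 ± 0.364 FPKM in DoxSa and 1.34 ± 0.335 FPKM in DMSO (SD, n = 4 each), with a fold change of 0.25 ± 0.12 (SE, adjusted p = 0.25). Of the ligands, 3 were in the table and 0 passed the filter, and Ifnb1, which encodes interferon beta, had 4 reads over all 8 libraries and at most 2 in any, too few to compare groups.

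**Figure D5:**
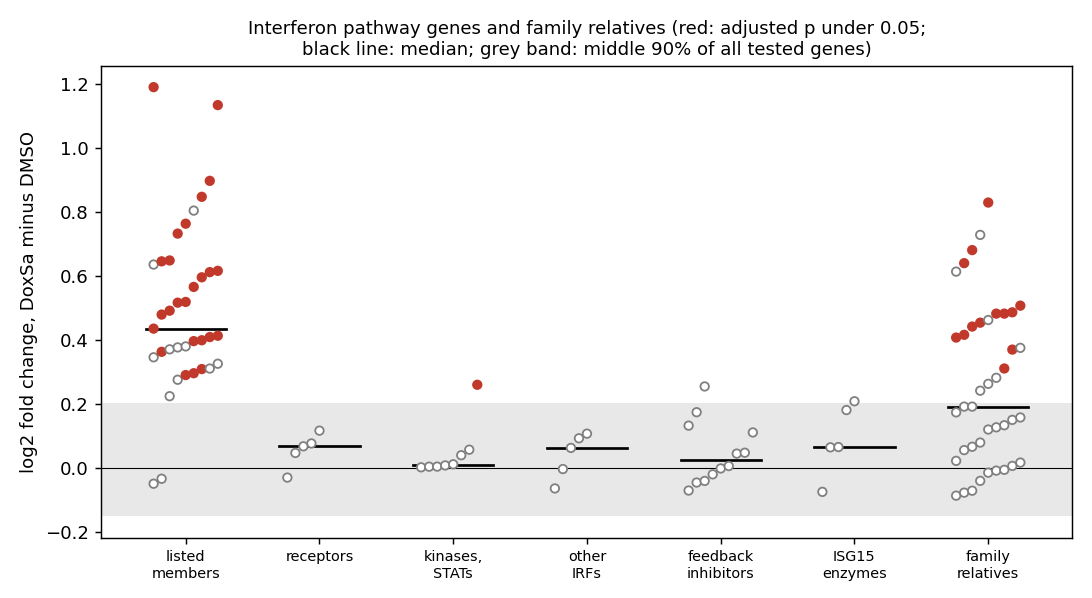
Log2 fold change, DoxSa minus DMSO, of log2(FPKM + 1) for the 37 genes, for 5 groups of pathway genes and for family relatives. Red points passed at an adjusted p under 0.05, black lines are medians (0.44 for the 37 and 0.19 for relatives), and the grey band holds the middle 90% of all tested genes (-0.15 to 0.20).

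In the plot of pathway genes and relatives, 35 of the 37 lay above the band of the middle 90% of tested genes, while Jak2 was the called pathway gene. Of 58 listed relatives in the same gene families, 53 were in the table, 41 were tested, 13 rose and 0 fell, against 3.88% of all tested genes higher and 2.02% lower. Of 12 tested PARP relatives 2 rose, Parp11 and Zc3hav1, and of 4 Schlafen relatives 2 rose, Slfn3 and Slfn9. Of 9 tested p200 relatives 5 rose, Ifi205, Ifi206, Ifi207, Ifi209 and Ifi211. Of 9 tested TRIM relatives 4 rose, Trim12c, Trim30c, Trim30d and Trim34a, and of 7 others 0 rose. The fold changes of the 13 ran from 0.31 ± 0.06 for Parp11 to 0.83 ± 0.19 for Ifi209 (SE). Zc3hav1, Slfn3, Ifi205, Trim12c and Trim30c were called without each library in turn, and the other 8 lost the call in at least 1 of those fits. Ifi206, Ifi209, Trim30d and Trim34a each lost it in 5 of the 8 fits (adjusted p up to 0.0948), Ifi207 in 2 (0.0568 to 0.0573), and Parp11, Slfn9 and Ifi211 in 1 each (0.0514 to 0.0573). Zc3hav1, an antiviral protein that binds viral RNA, averaged 16 ± 1.39 FPKM in DoxSa and 12.1 ± 0.93 FPKM in DMSO (SD, n = 4 each), with a fold change of 0.37 ± 0.07 (SE, adjusted p = 0.00916). Several of these, such as Slfn8 with Slfn9, Trim30a with Trim30c and Trim30d, and the p200 genes, are close copies that may share reads. In the families left out of the list, 5 of 11 tested IFIT and OAS genes rose, with a median log2 fold change of 0.80, as did 11 of 12 tested guanylate-binding and immunity-related GTPases, with a median of 0.65, against 3.88% of all tested genes called higher and a median of 0.0121. The difference between the families was not tested.

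Shared properties outside the expression values were also counted. The genes were listed by name as interferon-stimulated, so immune and antiviral terms follow in part from that choice. In the authors' annotation, 17 of the 37 genes carried the term innate immune response (45.9%), against 1.85% of all genes in the table, and 14 carried defense response to virus (37.8%), against 0.801%. Genes with a response element in a promoter window had a median log2 fold change of 0.52, with 10 called and 1 not, Ddx60. Genes with a window but no such match had a median of 0.40, with 9 called and 10 not. Among all tested genes 3.88% were called higher, and that share was not split by motif. The 37 genes were chosen with earlier results known, and the difference by motif was not tested. Rsad2, with 1 match, and Usp18, for which no window was at hand, had the largest fold changes. Cmpk2, with no match, rose next most, so the motif and the size of the rise did not run in parallel in every gene. In the RefSeq gene table, 14 of the 37 overlapped another annotated gene, Slfn5, Slfn8 and Slfn2 lay in 1 cluster, and Parp14, Dtx3l and Parp9 lay side by side.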

How the data were processed

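Total RNA was sequenced from 4 DoxSa and 4 DMSO libraries, grouped by their titles. HISAT2, HTSeq and build GRCm39 are named in the submitters' processing notes. Their versions, the strand setting and the gene annotation were not given in the sources used here. FPKM values of 22962 genes were deposited by the authors, with symbols and annotation terms. Whole reads were recovered from the FPKM steps for 12060 of 12060 tested genes in all 8 libraries (within 0.001 of a whole number).

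The 12060 genes that averaged 0.5 FPKM or more in the 8 libraries were tested on log2(FPKM + 1) with limma 3.58.1 in R 4.3.3 (lmFit and eBayes with an intensity trend, 2-sided, no covariate). SE is the moderated standard error, p-values were adjusted by the Benjamini-Hochberg method over the 12060 genes, and a call is an adjusted p under 0.05. The fit was tested on simulated data, with genes drawn independently and a shared dispersion. That test does not cover genes that vary more and move together across libraries, as these did. Reads can be shared between close copies or overlapping genes.

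Alternatives were a pseudocount of 0.1, no filter, a minimum of 2 FPKM, median-of-ratios and quantile scaling, no trend, library quality weights, a replicate block, voom on the recovered reads, and leaving out each library. The genes and lists were chosen with earlier results of these data known. Values of every library are given for up to 3 genes of each role with the smallest adjusted p and for Irf1, Irf7, Irf9, Stat2, Isg15 and Adar. Pathway genes are named when called, as are relatives, with Ifnar1, Ifnar2, Ifnb1, Irf3 and Socs1 named whatever their result. Of the pathway genes, 1 is not reported here and was left out of the pathway counts. Promoters came from RefSeq, build GRCm38.p6, with no coordinate converted between builds. Other steps used Python 3.11.15, numpy 2.4.6, pandas 2.3.3 and matplotlib 3.10.9.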

Additional observations from a re-analysis of the deposited data

Results flagged for a closer look

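In 4 genes DoxSa 4 lay far from the other 3 DoxSa libraries by Dixon's ratio, the gap to the nearest library over the range of the group. It measured 17.9 FPKM for Stat2, where the others measured 23.0 to 23.6 FPKM. For Trim30a it measured 20.9 FPKM, where the others measured 26.3 to 26.8 FPKM, and for Ifi35 17.7 FPKM, where the others measured 22.5 to 23.3 FPKM. For Ifi209 it measured 2.62 FPKM, where the others measured 4.09 to 4.34 FPKM. These were 4 of 110 groups examined in 55 genes, all 4 in DoxSa 4 and 0 in DMSO libraries, and chance alone flags about 1 in 20 groups.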

How the results depend on the processing

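Leaving out 1 library at a time gave 6 to 34 of the 37 genes higher, against 25 with all 8, while 0 were lower in each. Over all tested genes it gave 234 to 486 higher and 152 to 234 lower, and over pathway genes 1 to 2 higher. The filter stayed on the mean of all 8 libraries in these fits. With no filter on low values, 0 of the 37 and 158 of all genes were higher, and 108 of all genes were lower. More genes were tested in that fit, but that was not the only change. The standard error rose from 0.2253 to 0.2684 for Usp18 and from 0.2116 to 0.2526 for Isg15, and fell from 0.04398 to 0.03701 for Isg20. At an unadjusted p under 0.05, 33 of the 37 passed, against 35 with the filter. The part of each change in the lower counts was not tested. Irf3 had a log2 fold change near 0 that changed sign on leaving out 1 library, with a range of -0.0548 to 0.0271. The median log2 fold change of the 37 stayed between 0.365 and 0.523 in the fits without 1 library. The other settings gave 17 to 32 of the 37 higher, and voom on the recovered reads called 2 pathway genes higher, against 1.

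The replicate numbers are shared by the groups, but same-numbered libraries did not deviate together, with correlations of -0.0989 to 0.0654. A fit with the replicate block called 23 of the 37 higher, without Isg15, Herc6, Bst2 and Parp9 and with Ddx60 and Ifi35. With 4 reads over all 8 libraries, a group difference in Ifnb1 was not detectable at this depth.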
